A study of Mus musculus with 8 samples.

Results

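The cytosolic ribosomal protein genes of mouse were taken by symbol: every Rpl and Rps gene, the stalk genes Rplp0, Rplp1 and Rplp2, and Rpsa, without ribosomal S6 kinases, pseudogenes and mitochondrial ribosomal proteins. The rule found 85 genes of 32285, 52 with Rpl symbols and 33 with Rps symbols. Their counts come from single-cell 3′ RNA sequencing of mouse spleen, with 8 libraries in 4 groups of 2. Conditional knockout (cKO) mice were Eif3e fl/fl Cγ1Cre Rosa26-YFP LSL, and control mice were littermates with Cγ1Cre Rosa26-YFP LSL, so both genotypes carried the Cre and the YFP reporter and differed by the floxed Eif3e alleles. Eif3e codes for one of the proteins of eIF3, the complex that brings the small ribosomal subunit to mRNA. All mice were 2 months old, and each library pooled several mice of one genotype. For each genotype, total live spleen cells and sorted YFP+ cells were sequenced in batch 1 and in batch 2. Cγ1Cre acts in B cells once they are activated and YFP marks a cell, or the descendant of a cell, in which Cre has acted. YFP does not show by itself that both Eif3e alleles were deleted in that cell.

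A ribosome is built from one copy of most of these proteins in each subunit, so cells make them in nearly equal numbers. Their mRNAs begin with a tract of pyrimidines, the 5′ terminal oligopyrimidine (TOP) motif, through which mTOR signalling and LARP1 control how strongly they are translated. Activated B cells raise ribosome production before they divide, and loss of single ribosomal proteins can stabilise p53 through free Rpl5 and Rpl11.

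Rpl28 and Rpl12 (large subunit), Rps27 (small subunit) and the paralogs Rps27l, Rps27rt and Rpl22l1 carried such a run at the annotated start shown. Rps12 and Rpl22 did not within the window searched. In Rps12 a pyrimidine run begins farther into the transcript, beyond the 5 bases searched. Rps27l has another annotated start without a run. These starts are shown because the genes recur in the comparisons. Each line gives 30 bases of the transcribed strand (10 before and 20 from the start), from RefSeq on GRCm38.p6, with the run of at least 5 pyrimidines that begins with C within 5 bases of the start in capitals:
Rpl28, chr7:4792955-4792984, plus strand: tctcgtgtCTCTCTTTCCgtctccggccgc
Rpl12, chr2:32961702-32961731, plus strand: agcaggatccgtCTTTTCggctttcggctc
Rps27, chr3:90213629-90213658, minus strand: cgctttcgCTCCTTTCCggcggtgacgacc
Rps27rt, chr9:114982720-114982749, minus strand: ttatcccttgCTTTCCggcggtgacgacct
Rps27l, chr9:66946076-66946105, plus strand: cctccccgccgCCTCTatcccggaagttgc
Rpl22l1, chr3:28805498-28805527, plus strand: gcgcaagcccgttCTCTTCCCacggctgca
Rps12, chr10:23787190-23787219, minus strand: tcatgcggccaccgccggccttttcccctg
Rpl22, chr4:152324426-152324455, plus strand: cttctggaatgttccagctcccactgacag

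RefSeq starts were on hand for 65 of the 85 genes, in 77 rows because some genes have several starts. The run was found in 32 of the 77 member rows (41.6%) and in 6027 of 32851 rows of all genes (18.3%). Only the transcribed strand was searched, and an annotated start can differ from the start used in these cells. Genes whose run begins beyond the window, such as Rps12, were counted as without one. The run did not separate the genes by response: in YFP+ naive B-like cells the median log2 fold change, cKO over control, was 0.48 over the 30 tested genes with a run and 0.48 over the 32 tested genes without one.

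The libraries held 83704 cells after filtering, with 71894780 to 105224903 unique molecular identifiers (UMIs) each and medians of 5250 to 6810.5 UMIs per cell. Eif3e itself did not follow the genotype label over all YFP+ cells, at 227 and 267 CPM (the gene's UMIs scaled to a common library total) in the control libraries and 235 and 280 in the cKO libraries. In YFP+ naive B-like cells it was higher in the libraries labelled cKO (207 and 263 against 291 and 366 CPM), and in YFP+ pre-GCB-like cells lower (288 and 319 against 154 and 152 CPM). The genotypes were close in YFP+ GCB-like cells (264 and 297 against 269 and 306 CPM) and YFP+ plasma cell-like cells (108 and 136 against 104 and 117 CPM). The sources used here do not name the deleted exons, so it is not known whether a 3′ count reports the deletion, and "cKO" below means the library labelled so. Every class was named from marker genes, and its name is an inference ("X-like"). Markers of the T cell list summed to at most 38.6 CPM in naive B-like cells and 34.1 CPM in pre-GCB-like cells, where B lineage markers summed to at least 5190 and 2370 CPM.

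Over all cells the most counted member was Rplp1, an acidic protein of the large subunit stalk, at 6847 ± 1086 CPM (SD, n = 8 libraries). Rps24 (6044 ± 1109 CPM) and Rps20 (5046 ± 1035 CPM), both of the small subunit, Rplp2 (5000 ± 727 CPM), the partner of Rplp1, and Rpl23 (4958 ± 679 CPM) of the large subunit came next, with spreads that overlap between neighbours. The lowest members were all paralogs, genes that duplicate a ribosomal protein gene and often have a narrow tissue range. Among members counted in every library, Rpl3l had 86 UMIs in total, Rpl39l 624, Rps27rt 25.1 ± 8.04 CPM, Rpl7l1 60.4 ± 7.74 CPM and Rps27l 254 ± 106 CPM. Rpl10l, a testis gene, was counted 2 times in the whole series. A 3′ library gives one count per captured molecule whatever its length, so no division by length was made. Reads of a paralog and its parent may be split unevenly by the counting, which makes these levels uncertain. In this text the members are the 85 genes, and the tested ones are those past the filter on low counts: in the 6 comparisons with edgeR and its filter Rpl10l and Rpl3l were not tested, nor was Rpl39l in naive B-like and plasma cell-like cells.

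Together the members took between 6.48% of UMIs, in neutrophil-like cells, and 35.8%, in CD8 T cells. In YFP+ naive B-like cells, the resting follicular type, their share was 18.2% and 22.7% in control batches 1 and 2 and 23.3% and 28.5% in cKO. YFP+ pre-GCB-like cells, the activated B cells that precede the germinal centre (GC), had 21.7% and 26.5% in control and 29.0% and 31.2% in cKO. Germinal centre B (GCB)-like cells had 19.6% and 22.2% against 22.6% and 24.4%, and plasma cell-like cells, the antibody secretors, 11.6% and 14.0% against 17.8% and 15.9%. In each of these YFP+ classes both cKO libraries lay above both control libraries. Total-library CD4 T cells went the other way, with 23.9% and 30.3% in control and 20.98% and 24.1% in cKO. The batches differed as well. Within a genotype the members were higher in batch 2 than in batch 1 by a median of 0.46 (control) and 0.48 (cKO) on the log2 scale in YFP+ naive B-like cells, and by 0.41 and 0.22 in CD4 T cells.

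**Figure D1:**
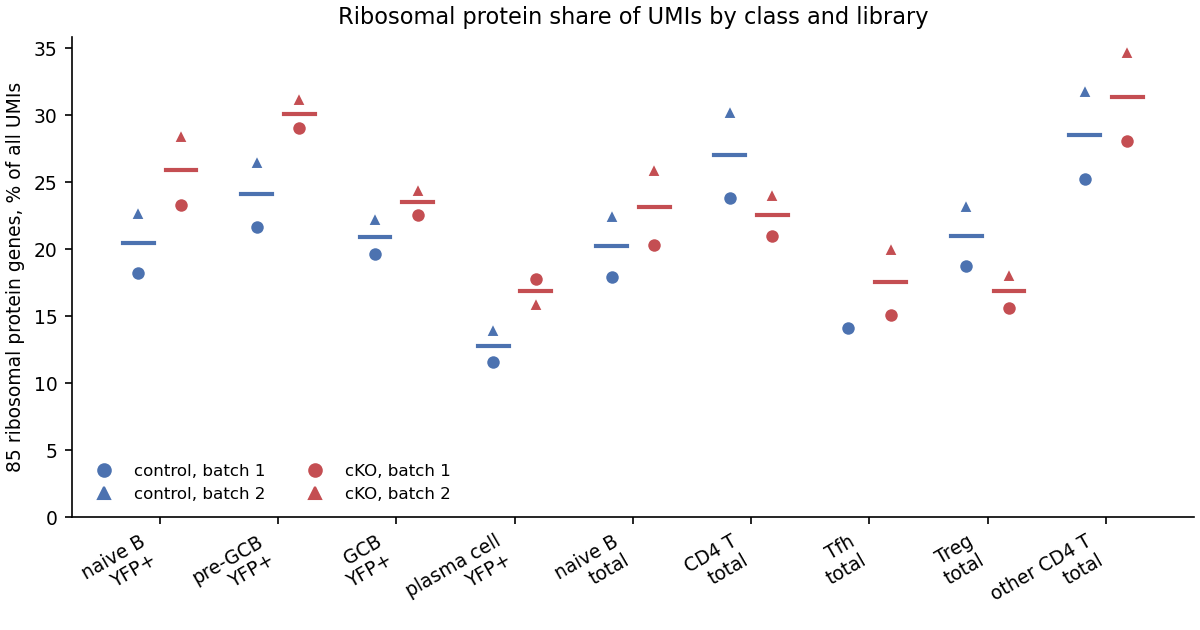
Share of all UMIs taken by the 85 ribosomal protein genes (y axis, percent) in each class, for control (blue) and cKO (red) libraries; circles are batch 1, triangles batch 2 and bars the mean of 2 libraries. Shares were higher in cKO within both batches in the 4 YFP+ classes and among naive B-like cells of the total libraries. They were lower in total CD4 T cells and in their Treg subset, while CD4 T cells outside the Tfh and Treg subsets were higher in cKO.

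In YFP+ naive B-like cells, nearly every ribosomal protein mRNA was higher in cKO than in control libraries, by a median log2 fold change of 0.48 (1.40-fold) over the 82 members tested. The log2 fold change was above 0 for 81 of them (52.2% of all genes tested), and 80 were higher in cKO within both batches (38.3% of all genes). Within batches the median was 0.47 in batch 1 and 0.50 in batch 2. The median was 0.30 without control replicate 1, 0.25 without cKO replicate 2 and 0.74 without control replicate 2. Here and below, a fit of cKO against control without 1 library has no block and leaves 1 genotype with 1 batch. The difference between batches therefore enters its median and calls. In the test without batch, edgeR's quasi-likelihood test with Benjamini-Hochberg adjustment over 12791 genes, 0 members passed 0.05 (0.743% of all genes passed), 2 had an unadjusted p under 0.05, and 0 were called by DESeq2 (16 under 0.05 unadjusted). Counts at unadjusted p, here and below, are of members alone. The share of all genes at that threshold was not counted, so they cannot be set against a background. With the batch number as a block, which the labels give as a shared batch, 78 of 82 rose and 0 fell (8.83% and 7.69% of all genes). All 46 large subunit members tested and all 31 small subunit members rose with the block, but only 1 of 5 paralogs, Rpl36al.

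Rpl28, a large subunit protein, had the largest difference in this class. Its TMM-scaled CPM was 1473 and 1988 in control batches 1 and 2 and 2385 and 3534 in cKO, so that both cKO libraries lay above both controls. On the log2 scale the difference was 0.77 (SE 0.34), with an edgeR adjusted p of 0.483, or 0.000136 with the block. Rps12, of the small subunit, was at 2934 and 3833 against 4839 and 6515 CPM (0.75, SE 0.33). In flies Rps12 also serves as a sensor of ribosomal protein dose. Rps28 was nearly flat between batches, at 1289 and 1293 CPM in control and 2069 and 2178 CPM in cKO (0.72, SE 0.29). For Rps20 the batches did matter, since control batch 2 (4824 CPM) came close to cKO batch 1 (5416 CPM). Control batch 1 was at 3355 and cKO batch 2 at 7962 CPM.

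The stalk recruits the elongation factors to the ribosome. Rplp0, its base, was at 1468 and 2134 CPM in control and 2289 and 3588 in cKO (log2 fold change 0.71, SE 0.36), Rplp1 at 4267 and 6024 against 6308 and 9214 (0.59, SE 0.35), and Rplp2 at 3626 and 4733 against 5065 and 6368 (0.45, SE 0.32). Rpsa, a small subunit protein that is also known as a laminin receptor, was at 1941 and 2729 against 2619 and 4029 CPM (0.51, SE 0.35), so that cKO batch 1 lay below control batch 2. In all, 46 members had both cKO libraries above both control libraries (19.7% of all genes). The members at the low end were paralogs and Rps4x, the X-linked form of the small subunit protein, at 2206 and 3298 CPM in control and 2779 and 3941 in cKO (0.29, SE 0.35). Rpl22l1, the paralog of Rpl22, was at 420 and 580 CPM in control and 434 and 548 in cKO, and Rpl7l1, a nucleolar relative of Rpl7, at 53.5 and 71.8 against 51.3 and 74.0 CPM. Both overlapped fully between genotypes. Their parents rose with the block: Rpl22 was at 1322 and 1789 against 1884 and 2407 CPM, and Rpl7 at 1461 and 2172 against 1980 and 2722.

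Genes that work with the ribosome were counted from fixed lists. All of the following counts are with the block unless stated otherwise. Rack1, a scaffold on the small subunit, rose (1431 and 1959 against 2070 and 2840 CPM). Of 7 elongation factor genes 6 rose, with a list median of 0.45, led by Eef1b2, an exchange factor of eEF1A (585 and 847 against 1071 and 1586 CPM). Of 12 other TOP mRNA genes 8 rose (median 0.39), led by Gas5, the noncoding host of small nucleolar RNAs (212 and 297 against 459 and 649 CPM). Ribosome biogenesis genes, which process rRNA in the nucleolus, rose in 10 of 30 (median 0.29), and mitochondrial ribosomal protein genes in 18 of 78 (0.22). Of 12 genes of TOP and mTOR control 0 rose and 1 fell with the block (median -0.05), and of 8 tested p53 response genes 5 rose and 1, Cdkn1a, fell (median 0.45). EdgeR without batch called 0 genes of each of these lists. The background median over all genes was 0.02.

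Depth and cluster makeup moved with genotype in this class, and their part in the result was not tested beyond the following restrictions. The median UMIs per naive B-like cell were 3969 and 2785 in control and 5261 and 6037 in cKO. Among cells of 4000 to 8000 UMIs, the members' share was 18.4% and 25.4% in control and 22.3% and 27.3% in cKO. There 17 members rose with the block, with a median of 0.25 (4.38% of all genes rose). This window kept 934 of 1983 and 253 of 2595 control cells, but 4054 of 5937 and 4950 of 7485 cKO cells. It therefore sets the deeper control cells against most cKO cells. One cluster held 96.7% of control and 1.77% of cKO YFP+ naive B-like cells. Within this cluster alone 40 members rose with the block (0.745% of all genes rose), with a median of 0.35. With all UMIs as the library size in place of TMM, 67 rose with the block (4.93% of all genes) and the median was 0.34.

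**Figure D2:**
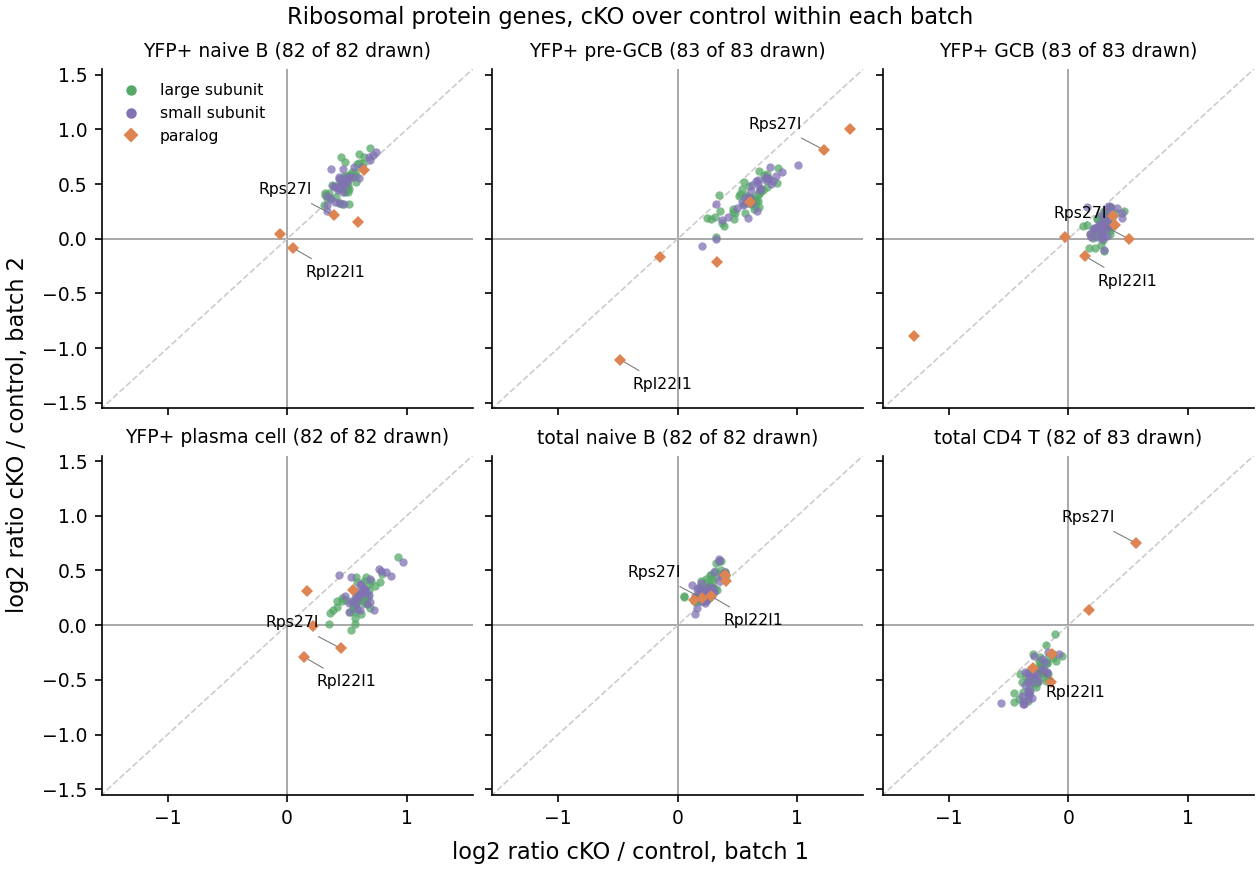
Each point is 1 ribosomal protein gene, placed by its log2 ratio of cKO over control in batch 1 (x axis) and in batch 2 (y axis), in 6 panels for the 6 comparisons; green marks the large subunit with its stalk, purple the small subunit and orange diamonds the paralogs, and the dashed line marks equal ratios. The classical members form a cloud to the upper right of 0 in both naive B-like panels and, but for a few, in the pre-GCB-like panel and to the lower left in CD4 T cells, while in the GCB and plasma cell panels the cloud lies to the right of 0 and closer to 0 in batch 2. Rps27l and Rpl22l1 lie outside the cloud in several panels. Rpl39l in CD4 T cells is not drawn, being beyond the axes.

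In total-library naive B-like cells, where no YFP sort was made, the members were again higher in cKO. All 82 members tested had a log2 fold change above 0 (50.4% of all genes), with a median of 0.29 (1.23-fold), and all 82 were higher in cKO within both batches (36.3% of all genes). Within batches the median was 0.26 in batch 1 and 0.32 in batch 2. In fits that left 1 genotype with 1 batch, it was 0.12 without control replicate 1 and 0.049 without cKO replicate 2. It was 0.51 without control replicate 2 and 0.50 without cKO replicate 1. With the block 66 of 82 rose and 0 fell (8.75% and 8.42% of all genes). Without it edgeR called 0 (0.0864% of all genes were called), with 0 at unadjusted p under 0.05, and DESeq2 called 0 with 1 under 0.05. Only 17 members had both cKO libraries above both controls (15.8% of all genes), a share close to the background.

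Rpl3, which lines the peptidyl transferase centre, was at 966 and 1346 CPM in control and 1241 and 2019 in cKO. Its log2 fold change was 0.50 (SE 0.34) without the block, and its edgeR adjusted p was 0.00222 with the block. Without the block the smallest edgeR adjusted p of any member in this class was 0.88. Rps28 was at 1374 and 1292 against 1742 and 1962 CPM and did not overlap. Rps24 (5377 and 7202 against 6005 and 8008 CPM) and Rps4x (2259 and 3220 against 2501 and 3448 CPM) overlapped, and did not pass with the block. Of 7 tested p53 response genes 3 rose and 1, Cdkn1a, fell with the block (median 0.26). Rpl22l1 rose with the block, at 413 and 538 against 501 and 647 CPM (edgeR adjusted p = 0.0266 with the block). Without the block its log2 fold change of 0.27 was no larger than its SE of 0.27.

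The CD8 T and NK-like cells of the same total libraries, which are no target of the Cre, had higher shares in cKO within both batches. CD4 T cells as a class, no target either, had lower ones. However, CD4 T cells outside the follicular helper and regulatory subsets, given below, had higher shares in cKO within both batches. The members took 26.7% and 33.7% of UMIs in control and 29.1% and 35.8% in cKO CD8 T cells, and 20.1% and 27.3% against 22.8% and 29.5% in NK-like cells. Marginal zone B-like cells had 22.3% and 29.0% against 23.3% and 28.1%, so that batch 2 went the other way. Whether these differences are smaller than that of naive B-like cells was not tested. Of the naive B-like cells, one cluster held 98.7% in control and 8.58% in cKO. Within it 19 members rose with the block (2.87% of all genes were called in either direction) and the median was 0.17, and among cells of 4000 to 8000 UMIs 69 rose (7.77% of all genes) and the median was 0.24.

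The YFP+ effect was compared with the total effect gene by gene. The difference of the log2 fold changes, YFP+ minus total, had a median of 0.19 over 82 members. In fits without a block, the median was -0.01 without control YFP+ replicate 1 or cKO total replicate 1. It was -0.05 without cKO YFP+ replicate 2, -0.03 without control total replicate 2 and up to 0.46 without one of the others. Each of these fits left 1 group with 1 batch, so the difference between batches enters the median. Within batch 1 the member medians, cKO over control, were 0.47 (YFP+) and 0.26 (total), and within batch 2 0.50 and 0.32. Without a block edgeR called 0 members (0% of all genes), with 0 under 0.05 unadjusted, and DESeq2 called 0 with 0 under 0.05 unadjusted. With each genotype and batch number together as a block, 26 members had a larger rise in YFP+ cells (0.984% of all genes), led by Rps12 (0.34, SE 0.05 with the block) and Rpl35 (0.33, SE 0.06), and 1, Rpl22l1, a smaller one (-0.29; 1.27% of all genes). Among cells of 4000 to 8000 UMIs 0 members had a larger and 1 a smaller rise with the block (0.186% and 0.433% of all genes), and the median difference was 0.048 with and 0.034 without the block.

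In YFP+ pre-GCB-like cells, ribosomal protein mRNAs were again higher in cKO, and 2 paralogs stood apart: Rps27l with the largest difference upward among well counted members, and Rpl22l1 with a difference downward. The median log2 fold change over 83 members was 0.47 (1.39-fold), 81 were above 0 (51.6% of all genes), 78 were higher within both batches (40.2% of all genes), and 62 had both cKO libraries above both controls (33.3% of all genes). The median was 0.31 without control replicate 1 and 0.80 without control replicate 2, when 48 members were called without the block (3533 of 14047 genes were called in that fit). With the block 54 rose and 1 fell (16% and 13.3% of all genes). Without it edgeR called 0 (12% of all genes were called), with 14 at unadjusted p under 0.05, where the share of all genes was not counted. DESeq2 called 6, of which 5 rose and 1 fell (1441 of 12782 genes were called).

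Rps27l, a p53-induced paralog of Rps27, was at 277 and 401 CPM in control and 645 and 706 in cKO. The cKO libraries lay well above both controls, with a log2 fold change of 1.00 (SE 0.29, adjusted p = 0.0505, and 1.14e-06 with the block). The direction turned within the cluster that both genotypes share and among cells of 4000 to 8000 UMIs, as given below. Its parent Rps27 was at 3105 and 3578 CPM in control and 3578 and 3418 in cKO, which overlapped (0.07, SE 0.27). Rpl22l1 was at 609 and 911 CPM in control and 437 and 423 in cKO, below both controls (-0.82, SE 0.29, adjusted p = 0.0944, and 0.000177 with the block). Its parent Rpl22 rose with the block, at 1600 and 2137 against 2483 and 2708 CPM (0.47, SE 0.28).

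Among the classical members Rps12 was the farthest up, at 4230 and 5581 CPM in control and 8511 and 8900 in cKO (log2 fold change 0.83, SE 0.29, adjusted p = 0.0936, and 8.37e-05 with the block). Rpl12, of the large subunit's GTPase centre, was at 2659 and 3491 against 4742 and 5476 CPM (0.73, SE 0.29). Rps20 was at 3629 and 5057 against 6653 and 7705 (0.73, SE 0.30), Rps28 at 1511 and 1451 against 2580 and 2293 (0.72, SE 0.27), and Rps19, the gene most often mutated in Diamond-Blackfan anaemia, at 3413 and 4586 against 6022 and 6813 (0.68, SE 0.29). In all 5 of them both cKO libraries were above both controls. Rpl7l1 (88.1 and 108 against 79.4 and 96.1 CPM) and Rps27rt, a retrotransposed copy of Rps27 (20.8 and 17.1 against 26.4 and 14.6 CPM), overlapped.

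The genotypes did not hold the same clusters in this class. One, named from its summed pre-GCB markers but led by Fabp5, Timd2 and Snhg15, with a median of 30934 UMIs per cell, held 45.3% of the cKO YFP+ pre-GCB-like cells and 4.35% of the control ones. The median UMIs of the class were 6006 and 4450 in control and 11626.5 and 16557 in cKO. In this deep cluster Rps27l was at 805 and 761 CPM of all UMIs in the cKO libraries, Rpl22l1 at 402 and 337, and Eif3e at 114 and 113. In the cluster shared by both genotypes Rps27l was at 309 and 365 CPM in control and 207 and 241 in cKO, the opposite direction, and in the total libraries at 218 and 313 against 228 and 290. Rpl22l1 there was at 669 and 917 CPM in control and 486 and 555 in cKO, and Eif3e at 298 and 304 against 251 and 289. Rps12 was at 4528 and 5516 CPM in control and 7217 and 7657 in cKO in the shared cluster. In the deep cluster it was at 8772 and 8250 CPM in the cKO libraries, and the control YFP+ libraries held too few cells there for a comparison.

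Within the shared cluster alone 52 members rose and 2 fell with the block (5.83% and 5.70% of all genes), with a median of 0.35. Among cells of 4000 to 8000 UMIs 5 rose and 1 fell with the block (3.57% and 3.84% of all genes), which is close to the background, and the median was 0.20, with Rps27l at a log2 fold change of -0.18 without the block. There the members took 20.01% and 25.7% of UMIs in control and 23.5% and 27.4% in cKO. With all UMIs as the library size 30 rose and 1 fell with the block (11.6% and 19.0% of all genes).

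Of all genes in this class 12% were called without the block, and with it 16% rose and 13.3% fell. In the p53 response list 5 of 9 genes rose without the block and 8 of 9 with it, and the list median was 1.96. Among the 5 were the cell cycle inhibitor Cdkn1a (8.56 and 2.85 CPM in control, 32.4 and 68.2 in cKO), Phlda3 (3.06 and 0 against 30.4 and 46.4 CPM) and Ccng1 (36.7 and 33.4 against 108 and 162 CPM). Mitochondrial ribosomal protein genes rose in 5 of 78 without and 29 of 78 with the block (median 0.41), whereas of 30 ribosome biogenesis genes 3 rose and 2 fell with the block (median -0.04). The 5 mitochondrial calls without the block and the biogenesis calls were no larger shares than those of all genes. Gas5 rose in the test without batch (319 and 430 against 769 and 932 CPM, log2 fold change 1.19, adjusted p = 0.026). Of 7 elongation factor genes 4 rose with the block, Eef1b2 among them (966 and 1325 against 2082 and 2559 CPM). Of 12 genes of TOP and mTOR control 1 rose and 2 fell with the block.

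Whether the response of a member differed between pre-GCB-like and naive B-like cells was tested in the 4 YFP+ libraries with the library as a term. Of 83 members 2 passed (19.4% of all genes passed), and DESeq2 called the same 2. Rps27l had a more positive log2 fold change in pre-GCB-like cells by 0.74 (SE 0.15, adjusted p = 3.29e-05), and Rpl22l1 a more negative one by 0.75 (log2 difference -0.75, SE 0.15, adjusted p = 1.01e-05). The remaining 81 did not pass, with a median difference of 0.03 over the 83. With the shared pre-GCB-like cluster in place of the class 11 of 82 members passed, while 1262 of 11835 genes passed, a share close to that of the members. All 11 had a more negative value in pre-GCB-like cells, and the median was -0.10. With the whole class, the median was 0.18 without cKO YFP+ replicate 2 and -0.03 without cKO YFP+ replicate 1. The difference of Rps27l turned to -0.76 with the shared pre-GCB-like cluster in place of the class and to -0.37 in cells of 4000 to 8000 UMIs, and that of Rpl22l1 was -0.45 and -0.08.

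**Figure D3:**
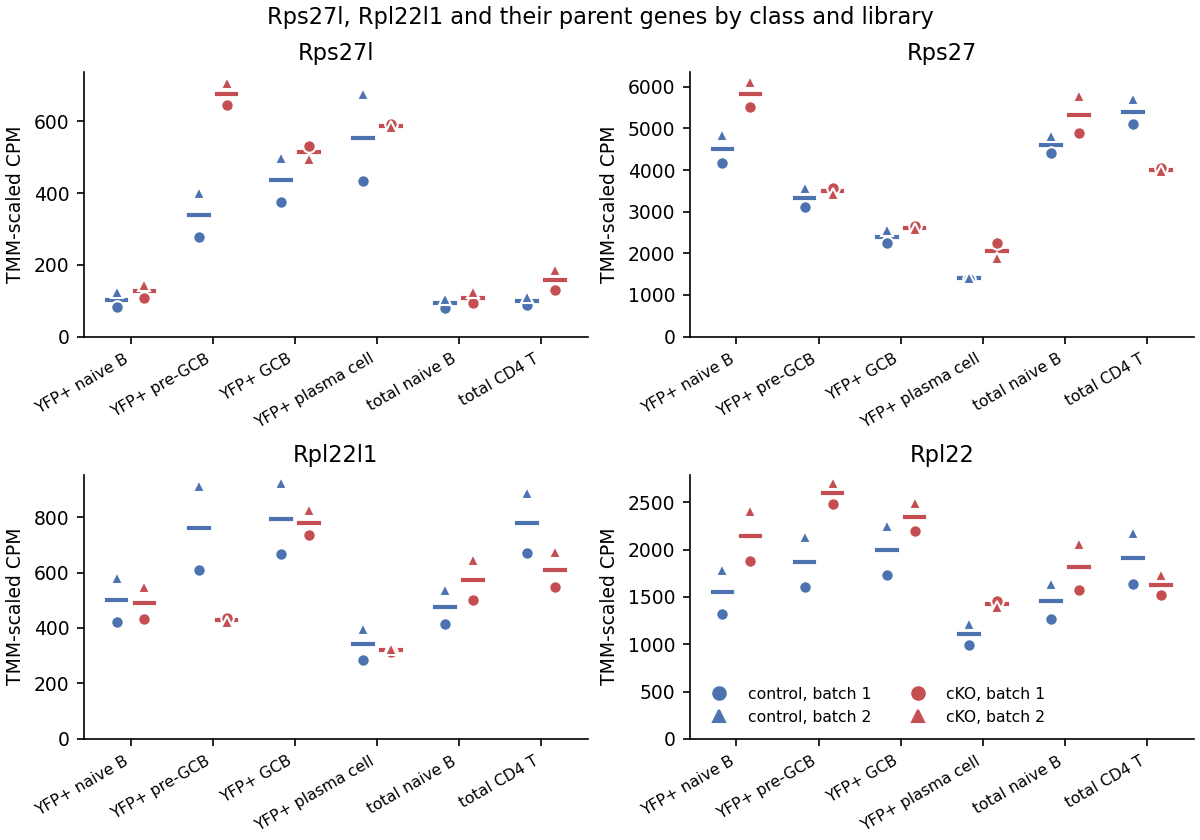
TMM-scaled CPM (y axis, from 0) of the paralogs Rps27l and Rpl22l1 and of their parents Rps27 and Rpl22 in the 6 comparisons; blue is control, red cKO, circles batch 1, triangles batch 2 and bars the mean of 2 libraries. In YFP+ pre-GCB-like cells Rps27l was at 645 and 706 in cKO against 277 and 401 in control, and Rpl22l1 at 437 and 423 against 609 and 911.

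In YFP+ GCB-like cells, which mutate and select their B cell receptors, the members were higher in cKO by a median log2 fold change of 0.20 (1.15-fold), and the classical ones did not pass any test. Of 83 tested, 80 were above 0 (48.3% of all genes), 72 were higher within both batches (29% of all genes) and 24 did not overlap upward (17% of all genes). The median was 0.039 without control replicate 1, 0.092 without cKO replicate 2, 0.41 without control replicate 2 and 0.32 without cKO replicate 1. It was 0.028 among cells of 4000 to 8000 UMIs, in 3 libraries, where the median over all genes was -0.10. There cKO was batch 1 alone, with 25 cells, against controls of both batches. That fit therefore cannot separate depth from batch. EdgeR called 0 without batch (1.42% of all genes), with 1 at unadjusted p under 0.05, and DESeq2 called 0 with 1. With the block the only call was Rpl39l, the testis paralog of Rpl39, which fell (5.73% of all genes fell and 3.77% rose). Its levels were 1.44 and 0.846 CPM in control and 0 and 0 in cKO, which is too few counts for a fold. Rpl14 (1801 and 2318 against 2493 and 2765 CPM) and Rps28 (1280 and 1208 against 1694 and 1467 CPM) were the farthest up of the well counted members. For both, the cKO libraries lay above both controls. Rpl23 (3761 and 5146 against 4248 and 4842 CPM) and Rpl22l1 (665 and 922 against 734 and 824 CPM) overlapped, with cKO inside the control range. Of the 30 ribosome biogenesis genes 4 rose with the block (median 0.33).

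In YFP+ plasma cell-like cells the median was 0.42 (1.33-fold), 81 of 82 members were above 0 (49.6% of all genes) and 78 were higher in cKO within both batches (29.3% of all genes). The median was 0.24 without control replicate 1. However, 0 passed edgeR's test with the block (1.64% of all genes rose and 1.06% fell) or without it (1.12% passed), with 2 at unadjusted p under 0.05 without it. DESeq2 called 0 with 10 under 0.05. The cKO libraries held 113 and 89 cells of this class, against 892 and 1051 in control. Both cKO libraries lay above both controls for 68 members (19.2% of all genes). Rpl12 was at 1101 and 1302 CPM in control and 2095 and 2010 in cKO (log2 fold change 0.77, SE 0.32), Rps12 at 2090 and 2425 against 4084 and 3610 (0.77, SE 0.33), and Rps19 at 1648 and 2037 against 3016 and 2780 (0.65, SE 0.33). Rps27l was at 434 and 676 against 593 and 583 CPM and Rpl22l1 at 285 and 397 against 315 and 324 CPM, cKO inside the control range. Immunoglobulin transcripts took 38.1% and 34.1% of UMIs in control and 30.1% and 32.2% in cKO. With immunoglobulin and mitochondrial genes out of the total, the members took 19.2% and 21.7% in control and 26.0% and 23.9% in cKO. A stricter filter on cells (1000 to 30000 UMIs and at most 5% mitochondrial) changed the members' share of all UMIs to 10.4% and 13.0% in control. In cKO it was 12.4% and 12.3%, so that cKO batch 2 was no longer above control batch 2.

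In total-library CD4 T cells, which are not a target of Cγ1Cre, ribosomal protein mRNAs were lower in cKO. The median log2 fold change over 83 members was -0.38 (0.769-fold), 80 were below 0 (52% of all genes), and 80 were lower in cKO within both batches (38.7% of all genes). The median was -0.16 without control replicate 2. With the block 54 fell and 1, Rps27l, rose (14.3% and 16.2% of all genes). Without it edgeR called 0 (4.45% of all genes), with 1 at unadjusted p under 0.05, and DESeq2 called 0 with 8 under 0.05. Both cKO libraries lay below both controls for 46 members (20.6% of all genes).

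Rps29, a zinc finger protein of the small subunit, was at 3872 and 3237 CPM in control and 2628 and 1973 in cKO (log2 fold change -0.63, SE 0.28, adjusted p = 0.336, and 8.17e-05 with the block). Rpl12 was at 4403 and 5837 against 3216 and 3580 CPM (-0.59, SE 0.27), Rps24 at 7403 and 10130 against 5720 and 6131 (-0.57, SE 0.28), and Rps4x at 3348 and 4787 against 2573 and 2901 (-0.57, SE 0.29). In these 4 genes both cKO libraries were below both controls. Rpl5, which with Rpl11 can bind MDM2, fell with the block, at 3774 and 4922 against 2839 and 3089 CPM, and so did Rpl35 at 1343 and 1465 against 979 and 951. Rps27l went the other way, at 88.2 and 110 CPM in control and 131 and 186 in cKO (0.68, SE 0.28, adjusted p = 0.298, and 2.82e-06 with the block), above both controls. Rack1 fell with the block, and so did 5 of 7 elongation factor genes (median -0.29). Of 30 ribosome biogenesis genes 3 fell, and of 78 mitochondrial ribosomal protein genes 8 rose and 4 fell, no larger shares than the 16.2% of all genes that rose and the 14.3% that fell. In the p53 response list 6 of 8 tested genes rose with the block.

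The makeup of the CD4 T cells moved with genotype. Follicular helper (Tfh)-like cells were 2.36% of control and 34.0% of cKO CD4 T cells, regulatory T (Treg)-like cells 15.9% and 29.1%, and the remaining CD4 T cells 81.7% and 37.0%. The members' share was lower in the first 2 subsets. It was 14.1% in Tfh-like cells of control batch 1, the only control library with at least 20 such cells, and 15.1% and 20.04% in cKO. In Treg-like cells it was 18.8% and 23.2% in control and 15.6% and 18.1% in cKO, and in the remaining CD4 T cells 25.3% and 31.8% against 28.1% and 34.7%. Without Tfh-like cells 9 members fell and 1 rose with the block (median -0.15), close to the 7.499% of all genes that fell (10.1% rose). Without Tfh-like and Treg-like cells the direction turned: 30 members rose and 0 fell with the block (2.90% and 3.96% of all genes), and all 82 tested had a log2 fold change above 0 (median 0.19). The sum over all CD4 T cells mixes these subsets. The part of subset makeup in its lower member level was not tested beyond leaving subsets out.

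Rps27l was higher in Tfh-like cells (137 CPM of all UMIs in control batch 1, 183 and 232 in cKO) and Treg-like cells (134 and 154, 161 and 232) than in the remaining CD4 T cells (74 and 92 in control, 90 and 109 in cKO). It was above control within both batches in Treg-like and in the remaining CD4 T cells. Among cells of 4000 to 8000 UMIs 24 members fell and 1 rose with the block (9.85% and 13.2% of all genes), with a median of -0.41.

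**Figure D4:**
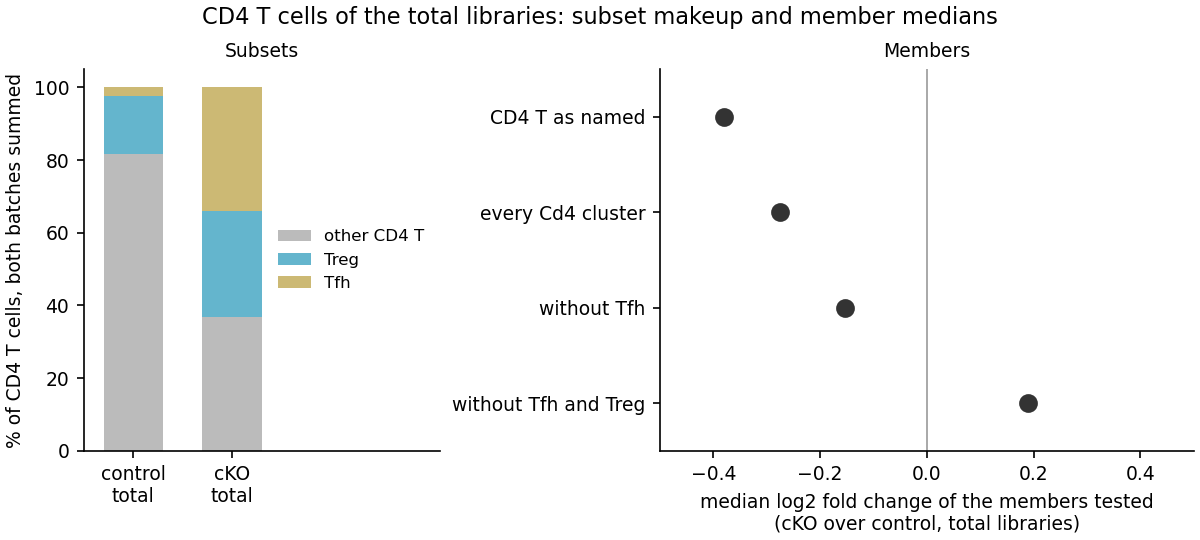
Left, subsets of the CD4 T cells of the total libraries (y axis, percent of CD4 T cells, 2 batches summed) in control and cKO; right, the median log2 fold change of the members tested (x axis, cKO over control) for CD4 T cells as named, for every cluster with Cd4 over Cd8, without Tfh-like cells and without Tfh-like and Treg-like cells. The median was -0.38 as named, -0.15 without Tfh-like cells and 0.19 without both subsets.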

How the data were processed

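Single-cell 3′ libraries (SeekOne DD kit, Illumina NovaSeq or DNBSEQ-T7) were made by the authors, who deposited whole-number UMI counts per gene and cell, 1 matrix per library, with no normalization. The labels give spleen as the tissue, while the extraction protocol also names lymph nodes. GRCm38 and mm10 are named in the submitters' processing notes. The sources used here name no aligner, counter or annotation. The members and gene lists were chosen with earlier results of these data known.

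Cells with over 200 UMIs, over 100 genes and at most 10% mitochondrial UMIs were kept (83704 of 83967). At most 102 barcodes were shared by any pair of libraries. Counts were scaled per cell and log-transformed, and 2000 variable genes, without ribosomal protein, immunoglobulin, T cell receptor, mitochondrial and list genes, were standardized within batch, reduced to 30 components and clustered (20 neighbours, Leiden resolution 1, leidenalg 0.10.2, seed 1). Clusters were named from marker lists. A first naming pass left the largest cKO naive-type cluster unnamed, and ranking genes against the equally weighted other clusters was used instead, before any test between groups. After the first run of the tests, CD4 clusters led by markers of another class were taken out of CD4 T cells; every Cd4 cluster kept was then run as an alternative. No doublet removal is named by the study; 2289 cells (2.73%) with UMIs of both B and T lineage markers stayed in and were left out as an alternative.

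Counts were summed per library and class (at least 20 cells) and tested with edgeR 4.0.16 (R 4.3.3; TMM, filterByExpr, robust quasi-likelihood F test, Benjamini-Hochberg over all genes tested, threshold 0.05), cKO against control, 2 libraries each. The SE is the log2 fold change over the square root of F. Within-batch log2 ratios used TMM-scaled CPM with a pseudocount of 1. The replicate number is a batch number in the labels, so it pairs libraries. Deviations from the group means correlated between genotypes in every comparison (r = 0.26 to 0.69 over genes, 0.63 to 0.93 over members). For the members, the fit with this block is given wherever it changes the number of calls. Libraries pool mice, so p-values without the block measure the spread between 2 pools a group. With the block they measure how well the difference between genotypes agrees between 2 batches, with variance estimates shared across genes. In simulated counts the test without block recovered 2.04% of genes changed 1.5-fold and 20.2% of those changed 2-fold in YFP+ naive B-like cells (12447 genes). DESeq2 1.42.0 was an alternative, and further ones are given below.

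Named genes are the paralogs with their parents, the stalk genes and Rpsa, the 5 most and 5 least counted members, those called (at most 6 each way) and the 3 farthest above and below the members' median. Some items that this rule or the lists name are not reported here.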

Additional observations from a re-analysis of the deposited data

Results flagged for a closer look

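Among the members, 2 differed in their response between YFP+ pre-GCB-like and YFP+ naive B-like cells by edgeR's test of the difference (2 of 83 members, while 19.4% of all genes passed). Rps27l had a log2 difference of 0.74 (adjusted p = 3.29e-05), with 277 and 401 CPM in control against 645 and 706 in cKO pre-GCB-like cells, and 82.8 and 123 against 109 and 143 CPM in naive B-like cells. Rpl22l1 had one of -0.75 (adjusted p = 1.01e-05), with 609 and 911 against 437 and 423 CPM and 420 and 580 against 434 and 548 CPM. Each group had 2 libraries.

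Both values moved with the cells that entered. With the shared pre-GCB-like cluster in place of the class the difference was -0.76 for Rps27l and -0.45 for Rpl22l1, and among cells of 4000 to 8000 UMIs -0.37 and -0.08. Without control YFP+ replicate 1 neither passed (adjusted p = 0.0735 and 0.0629), and without control YFP+ replicate 2 Rpl22l1 did not (0.109). The part of depth in these differences was not tested beyond that restriction.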

How the results depend on the processing

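The replicate block changed the number of members called at edgeR adjusted p under 0.05 from 0 to 78 in YFP+ naive B-like cells, 55 in pre-GCB-like cells, 1 in GCB-like cells, 66 in naive B-like cells of total libraries and 55 in CD4 T cells, and to 27 for the difference between sorts; plasma cell-like cells stayed at 0. In pre-GCB-like cells DESeq2 called 6, and total UMIs as library size, scaling from other genes, leaving out immunoglobulin genes and no filter on low counts called 1 each, as did no filter in GCB-like cells. With the block in each case, cells of 4000 to 8000 UMIs gave 17 calls in YFP+ naive B-like, 6 in pre-GCB-like, 25 in CD4 T cells and 1 between sorts. The main control cluster gave 40 calls (YFP+) and 19 (total), total UMIs 31 in pre-GCB-like cells, and in CD4 T cells 10 were left without Tfh-like cells, 30 (all higher) without Tfh-like and Treg-like cells and 30 with every Cd4 cluster kept. The difference between pre-GCB-like and naive B-like cells had 0 calls at 4000 to 8000 UMIs, 11, all lower, with the shared cluster (1262 of 11835 genes were called there) and 1 with the shared and main control clusters, where Rps27l reversed to -0.37, -0.76 and -0.49. The YFP+ naive B-like median of 0.48 became 0.33 with total UMIs, 0.55 without a filter, 0.25 at 4000 to 8000 UMIs, 0.59 at Leiden resolution 1.5, 0.45 without the largest cKO cluster and 0.36 in the main control cluster. In the same order except the filter, the total naive B-like median of 0.29 became 0.19, 0.23, 0.41, 0.21 and 0.17. At 4000 to 8000 UMIs the median was 0.20 in pre-GCB-like and 0.028 in GCB-like cells (3 libraries, with cKO batch 1 alone against controls of both batches). In CD4 T cells it was -0.25 with total UMIs, -0.15 without Tfh-like and 0.19 without Tfh-like and Treg-like cells. The difference in share fell to 2.60 percentage points in pre-GCB-like cells at 4000 to 8000 UMIs and to 0.638 in plasma cell-like cells under the stricter cell filter. Beyond the fewer cells that the restrictions keep, the cause was not tested.

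Leaving out 1 library at a time gave medians of 0.25 to 0.74 in YFP+ naive B-like cells, 0.31 to 0.80 in pre-GCB-like, 0.039 to 0.41 in GCB-like, 0.24 to 0.59 in plasma cell-like, 0.049 to 0.51 in total-library naive B-like and -0.53 to -0.16 in CD4 T cells, so the direction held in each. The median difference between sorts ranged from -0.05 to 0.46 and turned below 0 without any of 4 libraries (YFP+ control 1 and cKO 2, total control 2 and cKO 1). These fits had no block. Each left 1 group with 1 batch, so the difference between batches enters its median and calls. The YFP+ naive B-like median was 0.30 without control 1 and 0.25 without cKO 2, the total one 0.12 and 0.049, and the CD4 T median -0.16 without control 2. Calls stayed at 0 except in pre-GCB-like cells (0 to 48, 48 of them without control YFP+ replicate 2), GCB-like cells (0 to 1) and the difference between classes (0 to 16, 0 without control YFP+ replicate 1 and 16, of which 15 were higher, without cKO YFP+ replicate 2, when 2666 of 12823 genes were called). With 2 pools a group, 2 batches and few cells in some classes, the precision is limited. Plasma cell-like cells at 4000 to 8000 UMIs were not run, having too few cells.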

Other observations

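Paralogs and parents differed in level between classes of the control total libraries, a difference between classes that was not compared above. Rps27l was at 84.8 and 106 CPM in naive B-like cells, 339 and 440 in GCB-like cells and 342 and 443 in plasma cell-like cells. Rps27 ran the other way, from 4623 and 4898 CPM in naive B-like to 1568 and 1327 in plasma cell-like cells. These CPM are of all UMIs, and the members together took less of them in plasma cell-like cells. In the control YFP+ libraries their share was 11.6% and 14.0% there, against 18.2% and 22.7% in naive B-like cells. Rpl36al was counted above Rpl36a only in plasma cell-like cells of the 8 classes compared, at 953 and 1321 CPM against 827 and 752, whereas in naive B-like cells it was at 408 and 543 against 1139 and 1430. Rpl22l1 was lowest in plasma cell-like cells, at 298 and 291 CPM, and reached 769 and 973 in CD8 T cells. Its parent Rpl22 was low in plasma cell-like cells as well, at 1017 and 1105 CPM against 1334 and 1670 in naive B-like cells. These are levels without a test, in sums of as few as 41 plasma cell-like and 48 GCB-like cells per library, and the counting may split reads of a paralog and its parent unevenly.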
